A study of Homo sapiens with 9 samples.

Results

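The ZNF genes form the largest group of numbered zinc finger genes in the human genome, and 323 of them were expressed in H1299 cells. They were taken by gene symbol (ZNF followed by a number and at most 1 letter) and selected on their level, a mean of at least 3 FPKM over all 9 samples, out of 560 ZNF gene entries in the deposited tables and 60966 genes in all. FPKM, a count of sequenced fragments corrected for transcript length and for the depth of the library, was summed over the transcripts of each gene. Of the other ZNF entries, 111 had a mean below 1 FPKM, 33 of them listed at 0 in every sample, and 126 had a mean from 1 to 3 FPKM.

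Most proteins of this family carry tandem C2H2 zinc fingers, short loops held by a zinc ion, each of which can read a few bases of DNA. Many also carry a KRAB domain, which recruits TRIM28 and, through it, the histone methyltransferase SETDB1, HP1 proteins and DNA methylation to silence chromatin, above all at transposable elements. Others carry a SCAN domain, through which they pair, or act in the cytoplasm, on ribosomes or on RNA. Many KRAB members lie in gene clusters on chromosome 19 that grew by local duplication.

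RNA-seq was performed on H1299, an established human lung cancer cell line, to ask which transcripts change when FIBP, an intracellular partner of acidic fibroblast growth factor, is depleted. There were 3 groups with 3 samples each: cells transfected with a scrambled siRNA (Scramble), with Si-FIBP#1 or with Si-FIBP#2. The cells were harvested 48 h after transfection. All groups were transfected, so no group of untouched cells serves as a further control, and the labels do not say whether samples of a group came from separate cultures, so p-values measure the spread between these samples.

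FIBP itself was at 88.4, 79.5 and 77.7 FPKM in Scramble. It was at 7.49, 7.77 and 4.30 FPKM after Si-FIBP#1 and at 7.13, 5.92 and 8.21 FPKM after Si-FIBP#2, so every depleted sample lay far below the controls. Of markers of the cell type, VIM was at a mean of 3232 FPKM, KRT18 at 476 FPKM, KRT8 at 107 FPKM and KRT7 at 8.33 FPKM in Scramble, while the epithelial markers CDH1, EPCAM and KRT19 did not pass 0.29 FPKM in any sample. VIM, KRT18 and KRT8 were lower with both siRNAs (VIM at -0.49 and -0.72, KRT18 at -1.19 and -1.45, KRT8 at -0.53 and -0.49 on the log2 scale), and the lysosomal and macrophage marker CD68 was higher (0.27 and 0.90). The fibroblast marker COL1A1, below the filter for testing, had means of 0.077, 0.687 and 1.09 FPKM. The part of these shifts in the results was not tested, and in bulk RNA fewer cells of a kind and less RNA per cell cannot be told apart. The lung epithelial markers NKX2-1, SFTPB, SFTPC and NAPSA did not pass 0.66 FPKM in any sample. CD3E was at 0, and PTPRC, PECAM1 and VWF stayed at or below 0.27 FPKM. Correlations between log2 profiles of samples ran from 0.983 to 0.988 within groups and from 0.956 to 0.983 between groups, as a description. The libraries held an estimated 20000000 to 23600000 fragments.

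The level that selected the genes ran from 3.00 to 93.3 FPKM, with a median of 6.42 FPKM. Just inside the limit were ZNF273 at 3.00 FPKM and ZNF443 at 3.01 FPKM, and just outside it were ZNF136 and ZNF563, both at 2.96 FPKM. Of the 323 genes, 290 were at 3 FPKM or more in the mean of every group, and all 323 also passed the filter for testing (1 FPKM in at least 3 samples). A mean value below 3 FPKM was found for 16 genes in Scramble, for 14 with Si-FIBP#1 and for 12 with Si-FIBP#2. Of genes named below, ZNF155, ZNF608 and ZNF708 were among them in Scramble, and ZNF726 and ZNF850 with both siRNAs. ZNF93 and ZNF324 were among them with Si-FIBP#1, and ZNF395 and ZNF611 with Si-FIBP#2. These genes passed the limit through the groups in which they were higher, so their membership is not independent of their changes. An FPKM value of a typical gene here rested on about 416 fragments a sample, and on under 100 fragments in 2 genes. Together the 323 genes took 0.401% to 0.436% of all FPKM in a sample.

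After FIBP depletion, the expressed ZNF genes moved in both directions and by small amounts. With Si-FIBP#1, 78 of 323 rose and 53 fell, that is 24.1% and 16.4% of them (limma, Benjamini-Hochberg adjusted p below 0.05 over 14985 genes). Of all genes tested, 27.8% rose and 19.9% fell. With Si-FIBP#2, 92 rose (28.5%) and 48 fell (14.9%), beside 31.1% and 17.7% of all genes. Among the 11194 other genes with a mean of at least 3 FPKM 29.9% rose and 23.5% fell after Si-FIBP#1, and 33.2% rose and 21.3% fell after Si-FIBP#2, more than among the ZNF genes in each direction. This did not hold in each level bin: at 5 to 10 FPKM, 28.9% and 35.5% of the ZNF genes rose, beside 28.6% and 32.8% of the others. At 3 to 5 FPKM 14.5% and 18.2% rose, beside 26.7% and 30.7%, and at 10 to 20 FPKM 25.8% and 30.6%, beside 31% and 34.4%. At 20 FPKM and over 36.7% and 33.3% rose, beside 30.8% and 33.4%. The falling share of the ZNF genes with Si-FIBP#2 was the higher one at 3 to 5 FPKM (14.5% beside 13.5%) and at 20 FPKM and over (30% beside 26.9%).

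The median ZNF gene moved by little. The median difference on the log2(FPKM + 1) scale was 0.05 for Si-FIBP#1 and 0.10 for Si-FIBP#2, and the medians over all genes tested were 0.07 and 0.11. The side on which most ZNF genes lay depended on how samples were scaled. After scaling each sample by its median ratio to the others, which moved the median of all genes from 0.07 and 0.11 to 0.005 and 0.006, 58 rose and 68 fell with Si-FIBP#1, and 59 rose and 69 fell with Si-FIBP#2. Relative to all genes the median of the ZNF genes stood at -0.02 and -0.01 on the FPKM scale as deposited and at -0.03 and -0.01 after this scaling, but at 0.043 and 0.04 among genes filtered at 5 FPKM and at 0.035 and 0.069 without a filter on the genes tested. Other genes of at least 3 FPKM had medians of 0.06 and 0.09. The filter of 5 FPKM also left only 240 ZNF genes, whose own medians were 0.096 and 0.12, beside 0.053 and 0.08 for all genes. The side of the ZNF genes relative to other genes thus depended both on which ZNF genes were kept and on which genes they were set against.

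Large changes made up a smaller share of the ZNF genes than of other genes at the same level, a difference that is described here and was not tested. A difference beyond 0.5 on the log2 scale, in either direction, was found for 16.7% of the ZNF genes with Si-FIBP#1 and for 17% with Si-FIBP#2. Among the other genes of at least 3 FPKM the shares were 25.6% and 25.8%. The 74 expressed genes of other zinc finger families had smaller shares still, 6.76% and 9.46%, so the lower share was not particular to ZNF symbols. Over the 18 alternative settings the share ran from 14.6% to 21.1% of the ZNF genes and from 25.1% to 28.8% of the others with Si-FIBP#1. With Si-FIBP#2 it ran from 15.5% to 22.0% and from 25.1% to 29.2%.

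The gap was present at each level with the FPKM as deposited, and was narrower at 5 to 10 and at 10 to 20 FPKM. Among genes of 3 to 5 FPKM, 14.5% of 110 ZNF genes and 31.8% of 1393 others moved that far with Si-FIBP#1, and 14.5% and 33% did so with Si-FIBP#2. Among genes of 20 FPKM and over, 6.67% of 30 ZNF genes and 22.2% of 4942 others did so after Si-FIBP#1, and 10% and 22.9% after Si-FIBP#2. The standard error of a difference was of similar size in both sets, with a median of 0.12 for the ZNF genes and 0.13 for the others at 3 to 5 FPKM, and of 0.08 and 0.07 at 20 FPKM and over. These shares are a description, since genes are not independent replicates.

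**Figure D1:**
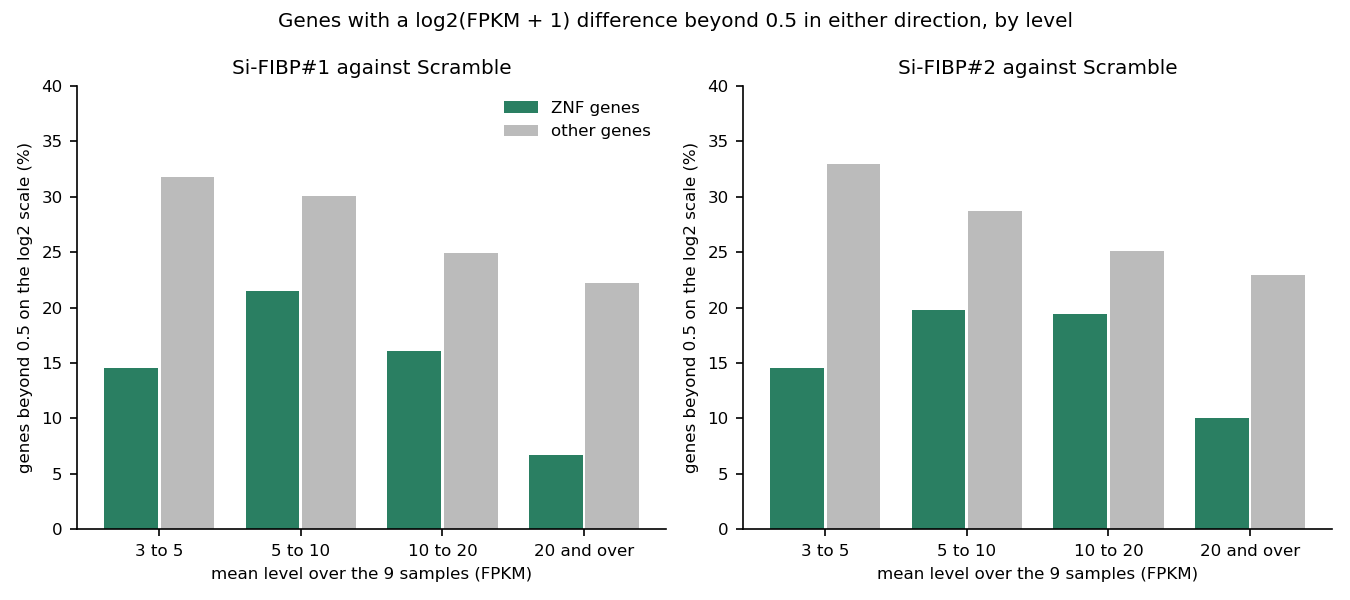
Share of genes (%) whose log2(FPKM + 1) difference from Scramble passed 0.5 in either direction, by mean level over the 9 samples (FPKM), for the ZNF genes (green) and all other genes of the same level (grey), with Si-FIBP#1 (left) and Si-FIBP#2 (right). In each of the 4 bins the green bar is the lower one, for example 14.5% beside 31.8% at 3 to 5 FPKM after Si-FIBP#1.

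The 2 comparisons share the Scramble samples, so they are given side by side and not as independent evidence. In total 62 ZNF genes passed the test as higher with both siRNAs, 40 as lower with both, and 0 in opposite directions. A further 29 passed with Si-FIBP#1 alone and 38 with Si-FIBP#2 alone, which does not show that they differed between the siRNAs, and 154 passed with neither. Higher with both were thus 19.2% of the ZNF genes, beside 21.8% of all genes tested and 23.8% of other genes of at least 3 FPKM. Lower with both were 12.4%, beside 13.7% and 16.4%, and 47.7% passed with neither, beside 39.5% and 33%. Passing with Si-FIBP#1 alone were 8.98% and with Si-FIBP#2 alone 11.8%, beside 11.7% and 12.8% of all genes tested, of which 0.487% passed in opposite directions. All 6 depleted samples lay above all 3 Scramble samples for 87 ZNF genes, and below them for 46. Those are 26.9% and 14.2% of the ZNF genes, beside 26.3% and 16.5% of all genes tested.

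**Figure D2:**
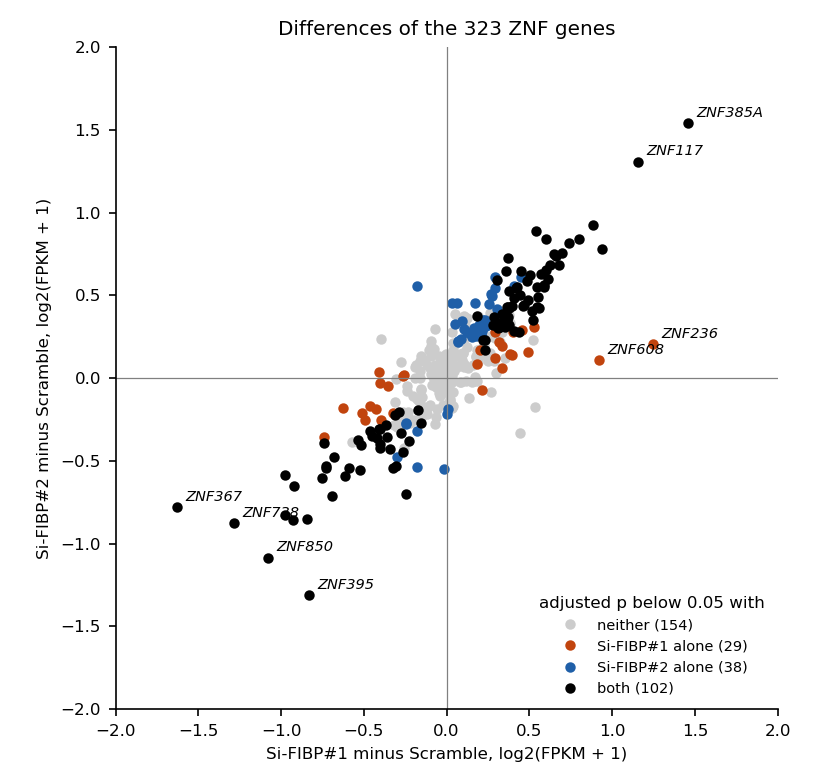
Each point is 1 of the 323 ZNF genes. The horizontal axis gives its difference between Si-FIBP#1 and Scramble and the vertical axis that between Si-FIBP#2 and Scramble, both on the log2(FPKM + 1) scale, coloured by the comparisons in which the adjusted p was below 0.05. ZNF385A and ZNF117 lie highest on the vertical axis, and ZNF236 lies between them on the horizontal axis (1.25, with 0.21 on the vertical axis). ZNF367 and ZNF395 reach the lowest values on the horizontal and the vertical axis. Both axes use the same Scramble samples.

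Changes of more than 2-fold on the log2(FPKM + 1) scale together with an adjusted p below 0.05 were rare. With Si-FIBP#1 they were found for 3 higher and 3 lower ZNF genes, where 2.55% and 3.11% of all genes tested were called. With Si-FIBP#2 there were 2 higher and 2 lower, where 2.92% and 2.13% of all genes were called. Together these were 7 genes: ZNF385A, ZNF117 and ZNF236 on the higher side and ZNF367, ZNF738, ZNF850 and ZNF395 on the lower side. These counts depend on the added 1, which understates changes of low genes, and were larger with a pseudocount of 0.1. In FPKM alone further genes that passed the test, ZNF726 among them, changed by more than 2-fold.

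ZNF385A, a C2H2 protein known as Hzf, showed the largest rise. It was at 2.42, 3.97 and 2.82 FPKM in Scramble, at 10.9, 9.90 and 9.37 FPKM after Si-FIBP#1 and at 9.25, 11.1 and 11.9 FPKM after Si-FIBP#2. The lowest depleted sample was thus more than 5 FPKM above the highest control. In FPKM the means were 3.28-fold and 3.50-fold those of Scramble, and on the log2(FPKM + 1) scale the differences were 1.46 ± 0.14 (SE, limma adjusted p = 3.63e-05) and 1.54 ± 0.14 (adjusted p = 2.81e-05). An antisense gene, AC079313.2, overlaps it, and without a stated strand reads of the pair cannot be told apart.

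ZNF117, which shares its locus with the endogenous retroviral envelope gene ERV3-1, was at 3.62, 3.01 and 2.88 FPKM in Scramble. It was at 8.78, 7.48 and 8.64 FPKM after Si-FIBP#1 and at 8.98, 10.6 and 8.44 FPKM after Si-FIBP#2, again with no overlap between depleted and control samples. The rise was 2.62-fold and 2.94-fold in FPKM, or 1.16 ± 0.11 (limma adjusted p = 2.85e-05) and 1.31 ± 0.11 (adjusted p = 1.52e-05) on the log2 scale. ERV3-1 overlaps it and moved with it, from 4.08, 3.89 and 5.13 FPKM in Scramble to between 9.77 and 12.5 FPKM after Si-FIBP#1 and between 12.3 and 13.8 FPKM after Si-FIBP#2. How the reads of the shared transcripts were divided between the 2 genes was not tested.

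ZNF236, a protein with 31 fingers by sequence pattern, was called with Si-FIBP#1 only through 2 libraries. It was at 3.21, 3.17 and 3.60 FPKM in Scramble and at 4.05, 3.71 and 4.21 FPKM after Si-FIBP#2, but at 17.4, 11.7 and 3.62 FPKM in replicates 1, 2 and 3 with Si-FIBP#1. The excess lay in a single transcript of 186 nt (ENST00000584565), listed at 14.1 and 7.97 FPKM in those 2 libraries and at 0 in the other 7. With all transcripts under 300 nt left out, a setting chosen after seeing the data, the gene was at 3.30, 3.68 and 3.62 FPKM after Si-FIBP#1, and the difference went from 1.25 (limma adjusted p = 0.026) to 0.07 (adjusted p = 0.58). Without replicate 1 of Si-FIBP#1 it was 0.82 (adjusted p = 0.0806), without replicate 2 it was 1.09 (adjusted p = 0.0845), and leaving out a Scramble sample gave adjusted p = 0.0532 to 0.0637.

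ZNF367, a C2H2 factor described as an activator of the fetal globin gene, showed the largest fall with Si-FIBP#1. It was at 17.8, 20.8 and 18.6 FPKM in Scramble, at 5.80, 5.42 and 5.22 FPKM after Si-FIBP#1 and at 11.5, 8.91 and 11.9 FPKM after Si-FIBP#2. The 3 groups did not overlap, and Si-FIBP#1 gave the lowest values. The difference was -1.63 ± 0.11 (limma adjusted p = 3.25e-06) and -0.78 ± 0.11 (adjusted p = 0.000292), or 0.287 and 0.564 of the control level in FPKM.

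The other 3 called genes that fell were ZNF738, ZNF850 and ZNF395. ZNF738, a KRAB family gene on chromosome 19, went from 10.3, 10.5 and 8.79 FPKM in Scramble to 3.71, 4.24 and 2.55 FPKM after Si-FIBP#1 and 5.54, 4.69 and 4.55 FPKM after Si-FIBP#2. All 6 depleted samples lay below the lowest control, with differences of -1.29 and -0.87 (limma adjusted p = 8.79e-05 and 0.000886). ZNF850, a KRAB protein with 30 fingers by pattern, went from 6.15, 6.08 and 5.07 FPKM to 2.10, 2.37 and 2.11 FPKM and to 2.63, 1.62 and 2.38 FPKM. Its fall was nearly the same with each siRNA, -1.08 ± 0.14 and -1.09 ± 0.14 (limma adjusted p = 0.00017 and 0.000168), and the difference between the siRNAs was -0.01 ± 0.14 (adjusted p = 0.986). The antisense neighbour ZNF567 overlaps it.

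ZNF395, a hypoxia-induced DNA-binding protein with no KRAB domain, went from 7.25, 6.64 and 7.04 FPKM in Scramble to 4.61, 3.00 and 3.02 FPKM after Si-FIBP#1 and to 2.43, 2.12 and 2.09 FPKM after Si-FIBP#2. Here the lowest values were those of Si-FIBP#2, and the groups did not overlap. The differences were -0.83 ± 0.14 and -1.31 ± 0.14 (limma adjusted p = 0.000801 and 5.15e-05). FBXO16 overlaps this gene.

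Promoter sequences, 250 bases before to 50 after the start, were at hand from RefSeq (GRCh38.p14) for 274 of the 323 genes by symbol. They are printed 5′ to 3′ for the 2 largest rises and the 2 largest falls with both siRNAs that have an entry, as examples only. For each symbol the first entry listed was taken. Capitals mark matches, on either strand, to the motifs TTCNNNGAA (the site type that STAT proteins bind), TTTCCCGC and TTTGGCGC (E2F type), CCAAT (NF-Y type), CGGAAG (ETS type) and GGGCGG (SP type). The letters of TTCNNNGAA and CGGAAG can overlap.
ZNF117, chr7:64990987-64991286, minus strand: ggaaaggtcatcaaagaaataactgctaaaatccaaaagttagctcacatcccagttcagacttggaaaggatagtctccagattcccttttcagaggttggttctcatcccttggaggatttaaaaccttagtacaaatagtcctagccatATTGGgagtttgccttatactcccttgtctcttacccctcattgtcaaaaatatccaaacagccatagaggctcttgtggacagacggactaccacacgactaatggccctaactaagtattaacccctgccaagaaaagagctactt
ZNF467, chr7:149773539-149773838, minus strand: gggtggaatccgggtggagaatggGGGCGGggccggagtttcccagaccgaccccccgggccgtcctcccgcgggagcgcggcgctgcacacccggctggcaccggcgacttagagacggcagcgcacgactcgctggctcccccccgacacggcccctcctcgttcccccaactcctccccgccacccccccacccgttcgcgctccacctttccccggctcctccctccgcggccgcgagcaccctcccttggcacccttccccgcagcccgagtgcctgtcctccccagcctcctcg
ZNF367, chr9:96418321-96418620, minus strand: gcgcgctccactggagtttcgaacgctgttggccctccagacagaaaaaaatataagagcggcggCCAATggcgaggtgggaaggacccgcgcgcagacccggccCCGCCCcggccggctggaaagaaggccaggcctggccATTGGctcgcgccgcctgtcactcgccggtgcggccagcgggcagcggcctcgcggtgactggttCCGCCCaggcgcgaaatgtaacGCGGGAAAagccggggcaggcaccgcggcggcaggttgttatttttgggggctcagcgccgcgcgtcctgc
ZNF850, chr19:36772758-36773057, minus strand: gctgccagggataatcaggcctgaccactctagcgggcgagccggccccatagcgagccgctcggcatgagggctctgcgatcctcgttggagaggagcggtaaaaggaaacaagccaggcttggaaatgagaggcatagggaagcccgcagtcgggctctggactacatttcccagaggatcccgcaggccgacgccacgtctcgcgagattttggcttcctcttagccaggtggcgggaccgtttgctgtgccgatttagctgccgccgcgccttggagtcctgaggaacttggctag

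The stretch printed for ZNF117 was poor in G and C (42.3%), with 2 CpG pairs and 1 CCAAT. ZNF117 shares its locus with ERV3-1, and whether this RefSeq start is the one in use here was not tested. The low share of G and C may therefore not describe the promoter of ZNF117. The promoter of ZNF467 held 75% G and C, 33 CpG pairs and 1 GGGCGG. The promoter of ZNF367 held 37 CpG pairs, 2 CCAAT, 2 GGGCGG and 1 TTTCCCGC. That of ZNF850 had 23 CpG pairs and matched none of the 6 motifs. A match is a stretch of letters and not a site shown to be bound.

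Some motifs were more frequent in the ZNF promoters than in promoters at large. TTCNNNGAA was found in 15% of the 274 promoters and in 7.66% of all 35116 RefSeq promoters, CGGAAG in 54% and 19.5%, GGGCGG in 63.5% and 45%, and CCAAT in 45.3% and 34.6%. The median number of CpG pairs was 22 and 14, and it was 22 both for genes that rose and for genes that fell with both siRNAs. TTCNNNGAA was in 18.3% of the 180 promoters of genes with a KRAB domain and in 8.51% of the 94 without it. By the same split CCAAT was in 53.3% and 29.8%, CGGAAG in 58.9% and 44.7%, and GGGCGG in 60.6% and 69.1%. Without KRAB, TTCNNNGAA was thus near its share in all promoters and CCAAT below it. By direction of change, TTCNNNGAA was found in 17.6% of the 51 promoters of genes that rose with both siRNAs, in 14.7% of the 34 of genes that fell with both and in 15.6% of the 128 of genes that passed with neither. CGGAAG was found in 45.1%, 50% and 56.2% of these, GGGCGG in 66.7%, 55.9% and 64.8%, and CCAAT in 37.3%, 52.9% and 46.1%. TTTCCCGC was in 1 of the 51, in 2 of the 34 and in 2 of the 128 (in all promoters 1.63%), and TTTGGCGC in 1, 0 and 3 (0.652%). The list of all promoters also holds genes that are not expressed here and non-coding genes. It was not reduced to 1 entry per symbol, as the ZNF set was.

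The rule for larger changes with both siRNAs (an adjusted p below 0.05 with each and all 6 depleted samples beyond all 3 controls) left 62 genes that rose and 39 that fell. By the adjusted p alone these were 62 and 40, or 19.2% and 12.4%, beside 21.8% and 13.7% of all genes tested. The share of all genes under the combined rule is not given here. After ZNF385A and ZNF117, the next rises were those of ZNF467, ZNF720, ZNF155, ZNF429, ZNF622 and ZNF708, by 0.60 to 0.94 with Si-FIBP#1 and by 0.76 to 0.92 with Si-FIBP#2 on the log2 scale. ZNF467, known as a partner that helps STAT3 to act in the nucleus, was at 6.06, 4.86 and 5.58 FPKM in Scramble, at 12.8, 11.8 and 8.79 FPKM after Si-FIBP#1 and at 13.5, 7.98 and 13.3 FPKM after Si-FIBP#2. That the lowest depleted sample lay above the highest control was required by the rule that selected it. The differences were 0.89 ± 0.19 and 0.92 ± 0.19 (limma adjusted p = 0.00412 and 0.00326).

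ZNF622, which acts in the maturation of the large ribosomal subunit, rose from 22.4, 26.0 and 25.6 FPKM to 39.0, 41.8 and 41.1 FPKM after Si-FIBP#1 and to 39.9, 45.5 and 41.5 FPKM after Si-FIBP#2. The replicates of each group lay close together, and the rise of 1.64-fold and 1.71-fold was far larger than their spread (limma adjusted p = 5.65e-05 and 3.73e-05). ZNF720, ZNF155, ZNF429 and ZNF708 are KRAB genes whose own targets are little known. ZNF155 rose from 2.21, 2.85 and 2.94 FPKM to between 4.80 and 6.20 FPKM after Si-FIBP#1 and between 5.26 and 5.77 FPKM after Si-FIBP#2. ZNF429 drew 66.0% of its FPKM from transcripts assembled from these reads. On Ensembl transcripts alone its differences of 0.74 and 0.82 (limma adjusted p = 0.00219 and 0.00122) became 0.62 and 0.54 and no longer passed (adjusted p = 0.0596 and 0.096).

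After the 4 called genes, the next falls were those of ZNF530, ZNF519, ZNF726 and ZNF544, all KRAB genes. ZNF726 was at 5.79, 5.39 and 5.76 FPKM in Scramble, at 3.03, 2.65 and 2.44 FPKM after Si-FIBP#1 and 2.67, 2.76 and 2.61 FPKM after Si-FIBP#2. The depleted means were 0.479 and 0.475 of the control level, at -0.85 ± 0.09 with either siRNA (limma adjusted p = 7.47e-05 and 7.27e-05). ZNF519 went from between 9.46 and 12.9 FPKM to between 4.45 and 6.34 FPKM over the 6 depleted samples (-0.93 and -0.86, limma adjusted p = 0.000368 and 0.000593). ZNF544 fell by 0.92 and by 0.65, and ZNF530 by 0.98 and by 0.83.

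**Figure D3:**
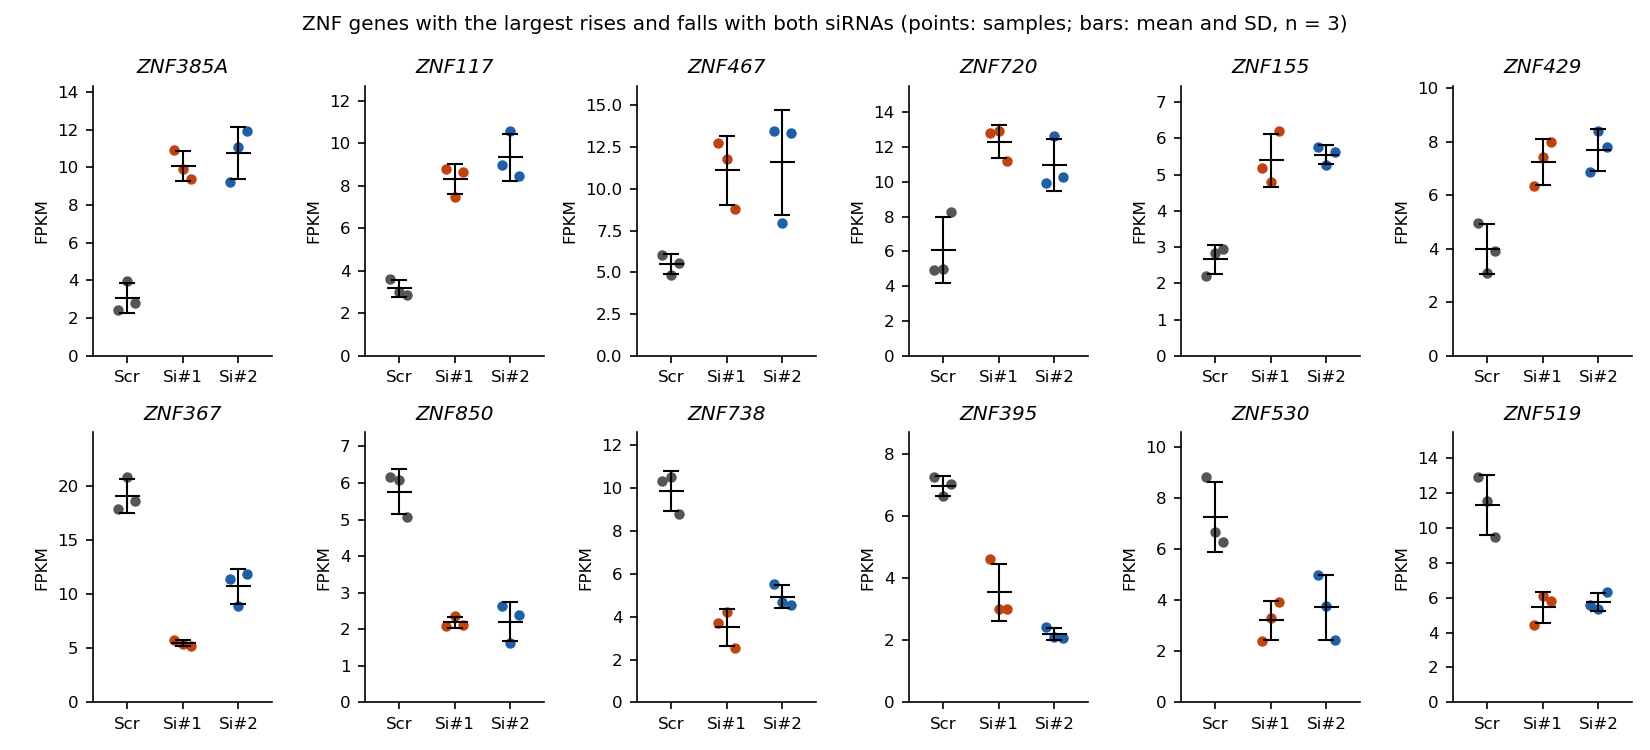
FPKM in each sample (points) with the group mean and SD (bars, n = 3) for the 6 largest rises (top row) and the 6 largest falls (bottom row) with both siRNAs; Scr is Scramble, Si#1 is Si-FIBP#1 and Si#2 is Si-FIBP#2. In each of the 12 panels the 6 depleted samples lie beyond the 3 Scramble samples, which the rule that selected these genes required. ZNF367 is lower with Si-FIBP#1 (5.22 to 5.80 FPKM) than with Si-FIBP#2 (8.91 to 11.9 FPKM).

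The most abundant ZNF genes moved by less than 0.5 on the log2 scale with the FPKM as deposited. In order of mean level they were ZNF706, ZNF207, ZNF146, ZNF593, ZNF428 and ZNF638, at 93.3 down to 53.9 FPKM, and none has a KRAB domain by its Pfam annotation. The order of ZNF207 (75.4 FPKM), ZNF146 (72.6 FPKM), ZNF593 (68.8 FPKM) and ZNF428 (67.4 FPKM) is not firm, because their values over the samples overlap. ZNF207, known as BuGZ, which helps chromosomes to attach to the spindle, fell from 89.2, 88.4 and 87.3 FPKM to 77.2, 73.8 and 69.5 FPKM after Si-FIBP#1 and to 64.6, 63.6 and 65.1 FPKM after Si-FIBP#2. The 3 groups did not overlap (-0.26 ± 0.05 and -0.45 ± 0.05, limma adjusted p = 0.00168 and 6.86e-05).

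ZNF146, a protein made almost only of zinc fingers whose gene overlaps the antisense ZNF565, fell by 0.27 with Si-FIBP#2 (limma adjusted p = 0.00216). With Si-FIBP#1 it fell by 0.16 (adjusted p = 0.0341), a call that was lost without Scramble replicate 1 (adjusted p = 0.0528) or 2 (0.136), or without Si-FIBP#1 replicate 1 (0.102) or 3 (0.0848). ZNF593, a ribosome maturation factor, rose by 0.45 with Si-FIBP#1 (limma adjusted p = 0.00883), while the 0.29 with Si-FIBP#2 did not pass (adjusted p = 0.0605) except without Si-FIBP#2 replicate 3 (0.40, adjusted p = 0.0152) and in a test of genes from 5 FPKM. ZNF638, which silences unintegrated viral DNA, rose by 0.22 and 0.23 (limma adjusted p = 0.04 and 0.0304), small changes that were lost in 11 and 8 of 18 alternative settings, among them median-ratio scaling (0.14 and 0.11) and the removal of any Scramble sample, of Si-FIBP#1 replicate 2 or 3 or Si-FIBP#2 replicate 3 for the first, and of Si-FIBP#2 replicate 2 or 3 for the second (adjusted p = 0.0506 to 0.147). ZNF428 rose by 0.23 with Si-FIBP#1 (limma adjusted p = 0.00647) and by 0.17 with Si-FIBP#2 (adjusted p = 0.0311), the latter lost without any 1 of the Scramble samples or without Si-FIBP#2 replicate 2 or 3 (adjusted p = 0.0572 to 0.0949), and at 0.05 after median-ratio scaling (adjusted p = 0.522). ZNF706 was at 78.6 to 82.2 FPKM after Si-FIBP#1 and at 91.6 to 105 FPKM in Scramble, and just missed the threshold (-0.30, limma adjusted p = 0.0507). It passed in 8 of 18 alternative settings, at the same or a larger size (adjusted p = 0.00279 to 0.046). With Si-FIBP#2 it was at 105, 80.1 and 114 FPKM and differed by -0.01 (limma adjusted p = 0.964). Its difference between the siRNAs was 0.30 (adjusted p = 0.112), and 0.45 without Si-FIBP#2 replicate 2, where it passed (adjusted p = 0.00265).

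Genes that rose and genes that fell were found both with and without a KRAB domain. A KRAB domain was annotated for 209 genes, of which 49 rose and 35 fell with Si-FIBP#1 and 59 rose and 32 fell with Si-FIBP#2, with medians of 0.04 and 0.10. Among the 114 genes without it, 29 rose and 18 fell, and 33 rose and 16 fell, with medians of 0.09 and 0.10. The KRAB genes thus rose in 23.4% and 28.2% of cases and fell in 16.7% and 15.3%, shares below the 27.8% and 31.1% rising and the 19.9% and 17.7% falling among all genes tested. This did not hold at each level. At 3 to 5 FPKM 15.7% and 21.3% of KRAB genes rose, beside 26.7% and 30.7% of other genes. At 5 to 10 FPKM these were 27.2% and 33.3%, beside 28.6% and 32.8%. At 10 to 20 FPKM they were 29% and 29%, beside 31% and 34.4%. Of the 8 KRAB genes at 20 FPKM and over 50% rose with each siRNA, beside 30.8% and 33.4%. After median-ratio scaling, 36 KRAB genes rose and 47 fell with Si-FIBP#1, and 38 and 47 for Si-FIBP#2, while of the others 22 rose and 21 fell, and 21 and 22, and the counts over all genes turned as well (3366 rising and 3590 falling, and 3340 and 3662). The medians of the KRAB genes were -0.03 and -0.01 and those of the others 0.01 and -0.01 under that scaling. The median number of fingers counted by sequence pattern was 10, and the most was 34. The 229 genes with 8 fingers or more had medians of 0.03 and 0.08, and the 87 genes with 1 to 7 fingers had 0.10 and 0.12. The 7 genes in which the pattern found 0 fingers had medians of -0.20 and 0.04, with 2 rising and 3 falling, and 2 and 1.

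The 20 genes with a SCAN domain had a higher median, 0.19 for Si-FIBP#1 and 0.25 for Si-FIBP#2, and its lowest values over 18 alternative settings were 0.12 and 0.15. Of these, 6 rose and 3 fell with Si-FIBP#1 (30% and 15%) and 9 rose and 3 fell with Si-FIBP#2 (45% and 15%), beside 27.8% and 19.9%, and 31.1% and 17.7%, of all genes tested. After median-ratio scaling 4 rose and 3 fell with each siRNA, and without a filter 5 rose and 3 fell with Si-FIBP#2. ZNF287 was at a mean of 3.42 FPKM in Scramble, 5.38 FPKM after Si-FIBP#1 and 7.13 FPKM after Si-FIBP#2 (0.54 and 0.89 on the log2 scale, passing with both). ZNF263 was at 17.5, 22.8 and 23.9 FPKM, and ZNF232 fell from 12.2 to 8.14 and 9.21 FPKM. These 3 were chosen as examples after their values were seen. The number of genes with this domain is small, and the difference between the classes was not tested. By a symbol ending in P, 6 of the ZNF genes were taken as pseudogenes. Of these, 0 rose and 3 fell with Si-FIBP#1 and 0 rose and 2 fell with Si-FIBP#2, where 19.9% and 17.7% of all genes fell. Outside the ZNF symbols, 74 expressed genes of other zinc finger families were listed, of which 16 rose and 18 fell, and 22 rose and 12 fell, with medians of 0.05 and 0.10. The 12 ZSCAN genes among them, which carry SCAN domains too, had medians of 0.23 and 0.22, with 5 rising and 0 falling in each comparison. That is 41.7% rising, beside 27.8% and 31.1% of all genes tested. The families of the list differed. The 3 SP genes had medians of -0.33 and -0.26, and 3 fell in each comparison. Medians were -0.25 and 0.05 for 11 KLF genes and -0.10 and -0.003 for 11 ZFP genes. They were 0.05 and 0.12 for 32 ZBTB genes and 0.16 and 0.40 for 5 ZKSCAN genes.

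ZNF genes of chromosome 19 moved in both directions. The chromosome holds 149 of the 323 genes, of which 28 rose and 28 fell with Si-FIBP#1 and 34 rose and 24 fell with Si-FIBP#2, while on all other chromosomes 50 rose and 25 fell, and 58 rose and 24 fell. As shares, 18.8% rose and 18.8% fell on chromosome 19 with Si-FIBP#1 and 28.7% and 14.4% elsewhere, beside 27.8% and 19.9% of all genes tested. For Si-FIBP#2 they were 22.8% and 16.1% on chromosome 19 and 33.3% and 13.8% elsewhere, beside 31.1% and 17.7%. Median-ratio scaling gave 21 rising and 37 falling on chromosome 19 after Si-FIBP#1 and 23 and 36 after Si-FIBP#2, and all genes turned with it, from 4170 rising and 2976 falling to 3366 and 3590 after Si-FIBP#1, and from 4653 and 2656 to 3340 and 3662 after Si-FIBP#2. With TPM scaling the counts after Si-FIBP#1 were 23 and 34, beside 3662 and 3280 of all genes. The difference between the chromosomes was not tested. Genes less than 500000 bases apart were joined into runs by the order of the GENCODE 29 annotation, and 8 runs held at least 9 expressed genes. Neighbours in a run can be related by duplication and can share reads, so they are not independent.

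The run from ZNF575 to ZNF180, with 17 expressed genes of 24 listed, leaned toward higher values. With Si-FIBP#1 7 rose and 1 fell, and with Si-FIBP#2 11 rose and 0 fell (41.2% and 64.7% rising, beside 27.8% and 31.1% of all genes). Its median in single samples, relative to the Scramble mean, was 0.01, 0.03 and 0.01 in Scramble, 0.28, 0.27 and 0.15 after Si-FIBP#1 and 0.20, 0.34 and 0.32 after Si-FIBP#2, without overlap. The median of all 323 ZNF genes did not overlap either, at up to 0.03 in Scramble and 0.05 to 0.11 in depleted samples. The same held for the runs from ZNF565 to ZNF573 (higher) and from ZNF175 to ZNF331 (lower), so a lack of overlap was not particular to this run. Over the groups the median of the run from ZNF575 to ZNF180 was 0.24 and 0.32, and 0.16 and 0.21 after median-ratio scaling, under which 7 rose and 3 fell with each siRNA. ZNF155, ZNF224, ZNF225, ZNF226 and ZNF227 lie in it and rose by 0.43 to 0.84 with both siRNAs. Among them ZNF226 reached 33.6 and 34.2 FPKM from 22.7 FPKM, and ZNF224, a repressor of the aldolase A gene, 17.2 and 18.6 FPKM from 12.1 FPKM. Not all neighbours followed, since ZNF222 and ZNF230 lay at -0.17 and -0.32 with Si-FIBP#1 without passing, and ZNF180 fell by 0.32 (limma adjusted p = 0.0146).

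The run from ZNF101 to ZNF254 was mixed. Of its 20 expressed genes, 2 rose and 7 fell with Si-FIBP#1 and 4 rose and 6 fell with Si-FIBP#2 (35% and 30% falling, beside 19.9% and 17.7% of all genes, and 10% and 20% rising, beside 27.8% and 31.1%). In each comparison 35% differed by more than 0.5, beside 26.4% and 26.8% of all genes. ZNF738, ZNF726 and ZNF714 fell there (ZNF714 from 9.81 to 5.50 and 6.49 FPKM), while ZNF708 and ZNF429 between them rose. ZNF91, which silences SVA retrotransposons, was at 4.65, 5.85 and 7.01 FPKM (0.28, limma adjusted p = 0.0559, and 0.50, adjusted p = 0.00372).

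The run from ZNF264 to ZNF446, with 22 expressed genes, leaned toward lower values, at medians of -0.24 and -0.07, with 2 rising and 7 falling after Si-FIBP#1 and 2 and 6 after Si-FIBP#2. Its median in single samples was 0.06, -0.03 and -0.07 in Scramble, below all of these after Si-FIBP#1 (-0.15, -0.15 and -0.20) and overlapping them after Si-FIBP#2 (-0.17, -0.06 and 0.01). Without Scramble replicate 1 the median with Si-FIBP#2 was -0.025, and without Si-FIBP#2 replicate 3 it was -0.12, without Scramble replicate 3 -0.11, and after median-ratio scaling -0.18. Of these genes 31.8% and 27.3% fell, beside 19.9% and 17.7% of all genes. ZNF530, ZNF544, ZNF814 and ZNF551 fell there with both siRNAs. The run from ZNF175 to ZNF331 had medians of -0.12 and -0.18 over 18 genes, with 1 rising and 3 falling, and 1 and 5. The share that fell was 16.7% after Si-FIBP#1, below the 19.9% of all genes, and 27.8% after Si-FIBP#2, above the 17.7% of all genes. Its first median was -0.19 without Scramble replicate 2 and -0.06 without Scramble replicate 3, and its second was -0.10 without Scramble replicate 3 and -0.07 without Si-FIBP#2 replicate 1. The run from ZNF565 to ZNF573, in which 26 of 27 listed genes were expressed, had medians of 0.15 and 0.21, with 6 rising and 2 falling, and 9 and 2. The rising shares, 23.1% and 34.6%, lay to either side of the 27.8% and 31.1% of all genes, and after median-ratio scaling the medians were 0.07 and 0.10. It also holds ZNF850, the largest fall on the chromosome with Si-FIBP#2. The sign of the medians of these 3 runs held in all 18 alternative settings, while that of the run from ZNF101 to ZNF254 did not (-0.13 to 0.02 with Si-FIBP#1). The remaining 3 runs held 9 to 12 genes, with medians between -0.09 and 0.19.

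**Figure D4:**
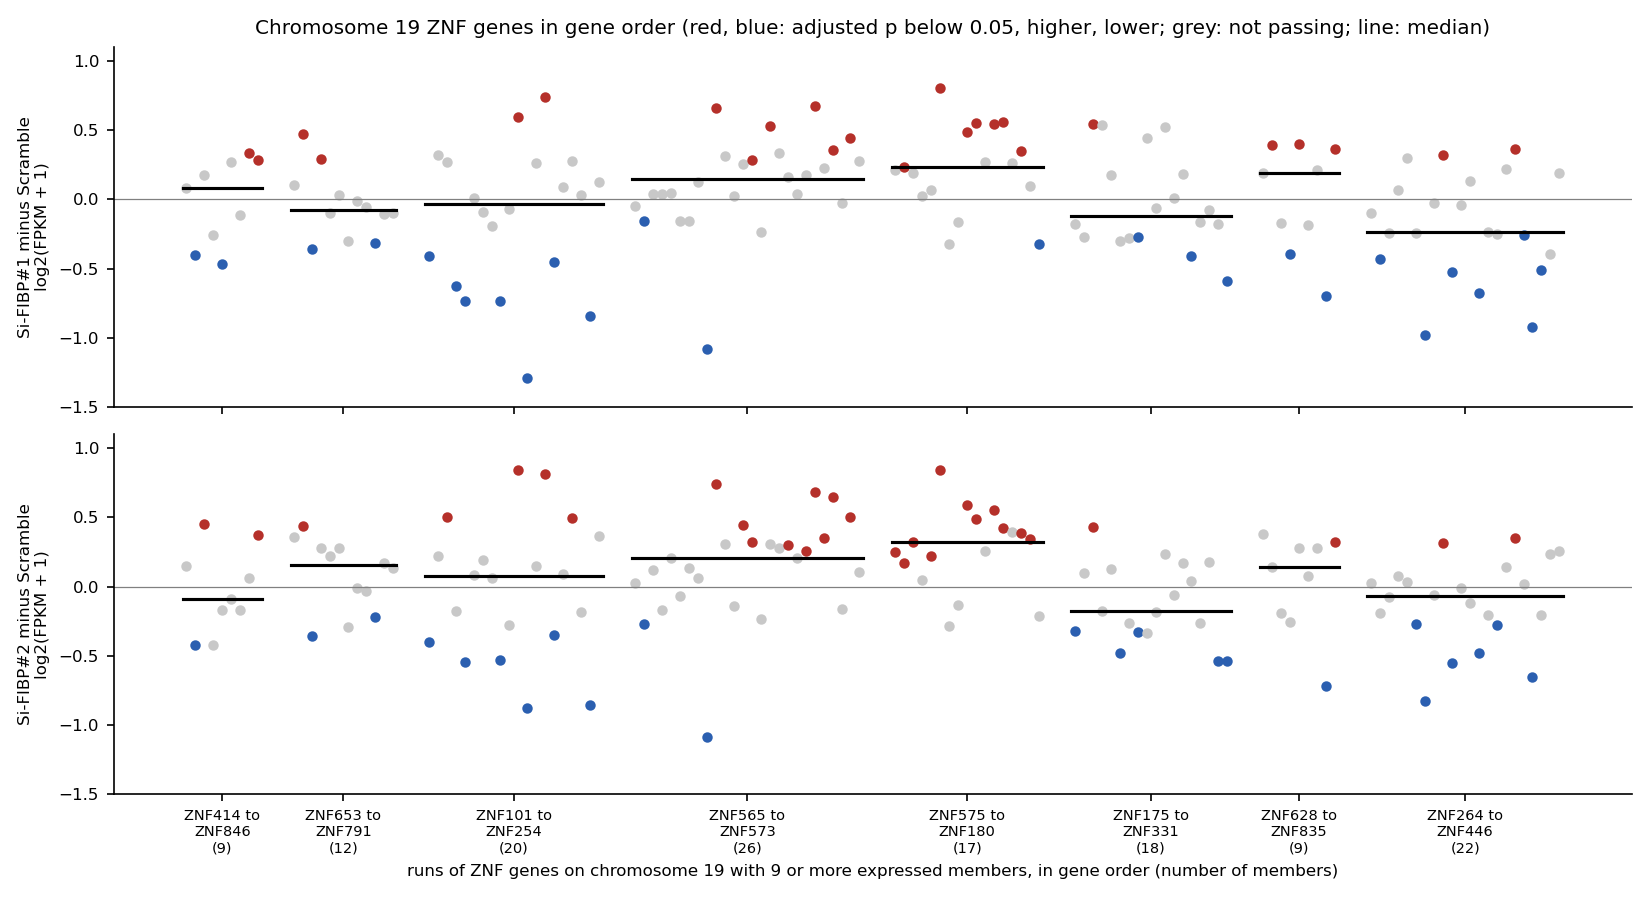
Difference from Scramble on the log2(FPKM + 1) scale for the ZNF genes of chromosome 19 in the 8 runs with at least 9 expressed genes, in gene order, with Si-FIBP#1 (top) and Si-FIBP#2 (bottom). Red and blue points passed an adjusted p of 0.05 as higher or lower, grey points did not, and black lines are run medians. The run from ZNF575 to ZNF180 lies mostly above 0 (medians 0.24 and 0.32), and that from ZNF101 to ZNF254 holds both the largest fall with Si-FIBP#1 (ZNF738) and some of the larger rises.

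The machinery through which KRAB proteins act was itself lower in part. Of 30 genes listed for it, 3 rose and 16 fell with Si-FIBP#1 and 3 rose and 14 fell with Si-FIBP#2, with medians of -0.21 and -0.07, while 27.8% and 31.1% of all genes tested rose and 19.9% and 17.7% fell. The median with Si-FIBP#2 was -0.19 after median-ratio scaling, -0.14 on Ensembl transcripts alone, and -0.11 without Scramble replicate 2 or 3 or Si-FIBP#2 replicate 2. The list had a median level of 41.1 FPKM. Of other genes of 20 FPKM and over, 30.8% and 33.4% rose and 28% and 26.9% fell. The 3 genes of the list that rose with each siRNA were MPHOSPH8 (0.63 and 0.57), ATRX (0.26 and 0.35) and CHD4 (0.16 and 0.34). TRIM28, the scaffold that KRAB domains bind, was at 331, 292 and 312 FPKM in Scramble, at 220, 223 and 221 FPKM after Si-FIBP#1 and at 249, 260 and 272 FPKM after Si-FIBP#2, so the 3 groups did not overlap (-0.49 and -0.26 on the log2 scale, limma adjusted p = 6.73e-05 and 0.00303). SETDB1, the methyltransferase, was at 17.5 to 19.3 FPKM, 18.2 to 24.0 FPKM and 16.4 to 20.5 FPKM and did not pass (0.10 and -0.04, limma adjusted p = 0.489 and 0.81). Of the 30, DNMT1, the maintenance DNA methyltransferase, and UHRF1, which brings it to replicating DNA, changed by more than 2-fold, DNMT1 with Si-FIBP#1 alone. DNMT1 fell from a mean of 88.1 FPKM to 38.8 and 52.4 FPKM, and UHRF1 from 66.5 to 17.3 and 18.0 FPKM. Both are known to be highest in S phase. The part of TRIM28, DNMT1 or of the share of cycling cells in the changes of the ZNF genes was not tested.

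Between the siRNAs few ZNF genes differed. In the Si-FIBP#2 samples, 12 of the 323 genes lay higher and 9 lower than in the Si-FIBP#1 samples (3.72% and 2.79%), beside 9.58% and 5.8% of all genes tested. With the 2-fold requirement 0 ZNF genes were called in either direction by limma, beside 0.267% and 0.294% of all genes, and 60 ZNF genes (18.6%) had an unadjusted p below 0.05, beside 29.9% of all genes. After scaling to TPM 20 were higher and 5 lower, and after median-ratio scaling 9 and 12, while all genes moved the same way, from 1435 higher and 869 lower to 1923 and 648 (TPM) and to 1074 and 1188 (median ratio). Leaving out 1 sample gave 3 to 17 higher and 2 to 9 lower, with 3 and 3 without Si-FIBP#2 replicate 3.

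ZNF367 differed most, by 0.85 ± 0.11 (limma adjusted p = 0.00132), and passed in all 18 alternative settings. ZNF608, which has no KRAB domain, was at 2.32, 2.77 and 3.05 FPKM in Scramble, at 7.02, 5.48 and 5.58 FPKM after Si-FIBP#1 and at 3.96, 2.11 and 3.11 FPKM after Si-FIBP#2. Only the Si-FIBP#1 samples stood above the rest (0.92 from Scramble and -0.81 between the siRNAs, limma adjusted p = 0.00175 and 0.0127). Without Si-FIBP#1 replicate 1 the latter was -0.71 and no longer passed (adjusted p = 0.0523).

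ZNF680, a KRAB gene, showed the opposite pattern, with 7.65, 7.88 and 9.98 FPKM in Scramble, 6.23, 7.28 and 8.74 FPKM after Si-FIBP#1 and 11.99, 13.1 and 13.6 FPKM after Si-FIBP#2. Only Si-FIBP#2 rose above Scramble, and the difference between the siRNAs was 0.73 ± 0.13 (limma adjusted p = 0.0057). It drew 47.0% of its FPKM from assembled transcripts, and on Ensembl transcripts alone its rise from Scramble with Si-FIBP#2 was 0.27 (limma adjusted p = 0.207) and its difference with Si-FIBP#1 was -0.45 (adjusted p = 0.0458). ZNF611, ZNF480 and ZNF324, all KRAB genes on chromosome 19, differed by -0.78, -0.71 and 0.63 with limma adjusted p = 0.0363, 0.0448 and 0.0372. ZNF611 was at 7.35, 3.32 and 5.93 FPKM after Si-FIBP#1 and at 2.24, 3.16 and 2.69 FPKM after Si-FIBP#2, groups that lay side by side without overlap. These 3 calls lay close to the threshold and were lost in several alternatives, with differences of -0.57 to -0.78 for ZNF611, -0.58 to -0.80 for ZNF480 and 0.44 to 0.72 for ZNF324. That of ZNF611 was lost without Scramble replicate 2 or 3, or without replicate 1 or 3 of either siRNA (adjusted p = 0.0536 to 0.109). That of ZNF480 was lost without Scramble replicate 1, any Si-FIBP#1 sample or Si-FIBP#2 replicate 1 or 3 (0.0541 to 0.136) and with a replicate block (0.0675), which also ended that of ZNF611 (0.0545). That of ZNF324, which overlaps ZNF446, was lost without Scramble replicate 2, any Si-FIBP#1 sample or Si-FIBP#2 replicate 2 or 3 (0.0516 to 0.102).

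**Figure D5:**
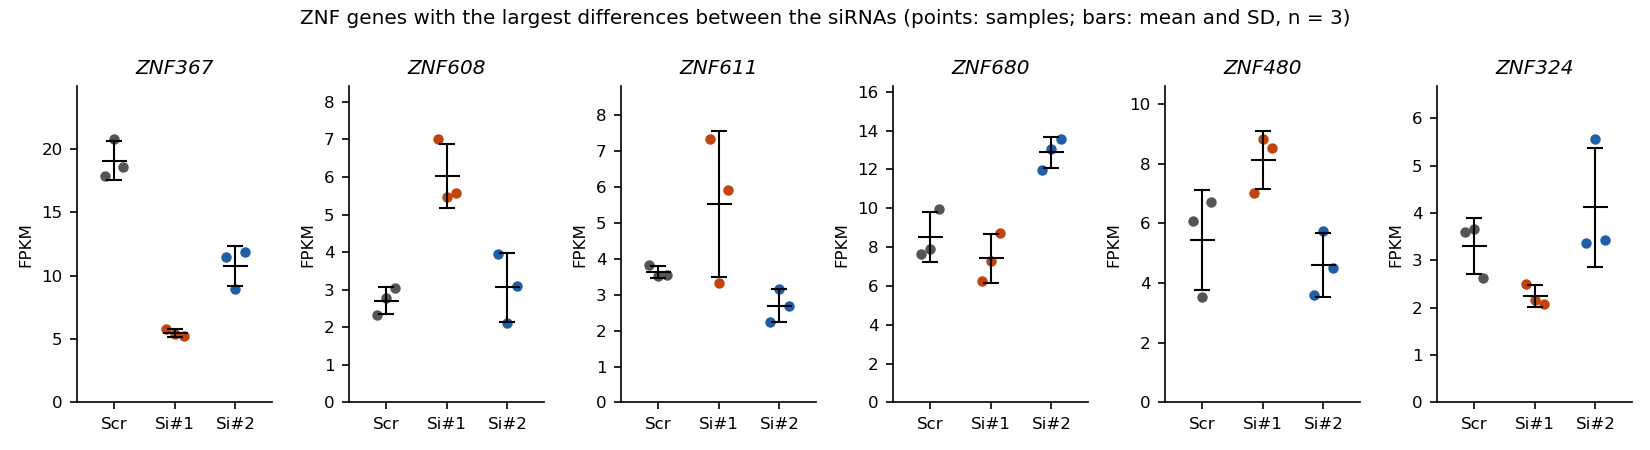
FPKM in each sample (points) with the group mean and SD (bars, n = 3) for the 6 ZNF genes with the largest differences between the siRNAs; Scr is Scramble, Si#1 is Si-FIBP#1 and Si#2 is Si-FIBP#2. ZNF608 stands high with Si-FIBP#1 alone (5.48 to 7.02 FPKM) and ZNF680 with Si-FIBP#2 alone (11.99 to 13.6 FPKM), while the spread of ZNF611 with Si-FIBP#1 (3.32 to 7.35 FPKM) is wide.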

How the data were processed

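RNA was poly(A)-selected and sequenced from both ends in 3 Scramble, 3 Si-FIBP#1 and 3 Si-FIBP#2 samples. The authors deposited 1 table of FPKM values per sample, to 2 decimals, for Ensembl and newly assembled transcripts, without naming the unit, which was inferred from the values. The submitters' processing notes name HISAT2 and StringTie. Versions, genome build, annotation and strand setting are not given in the sources used here, so coordinates are given for RefSeq promoters only, and reads of near-identical ZNF genes may have been split in ways not stated. Depth was estimated from the step that 1 fragment gives low FPKM values, which were not clean enough to recover whole reads (mean cosine 0.756 to 0.813). No counting interval is given for FPKM.

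FPKM were summed per gene. Genes at 1 FPKM or more in at least 3 samples were fitted over all 9 samples on log2(FPKM + 1) with limma 3.58.1 (R 4.3.3, trended empirical Bayes), with Benjamini-Hochberg adjustment over 14985 genes. Adding 1 understates changes of low genes. Domains came from the deposited Pfam annotation, in place of a protein pattern planned at the outset, fingers from the longest reading frame of GENCODE 29 transcripts, and chromosome and gene order from GENCODE 29. The named genes were the 6 with the highest mean, those called at 2-fold, the 8 largest rises and falls with both siRNAs by the mean of the 2 differences, the 6 largest differences between the siRNAs, the 2 genes on each side of the level limit, FIBP, TRIM28, SETDB1 and called co-repressor genes. The members, lists and tests were chosen with earlier results of these data known. Alternatives were other scalings, pseudocount, filters, samples in the fit, transcripts and member limits, a block for the replicate number, and each sample left out in turn.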

Additional observations from a re-analysis of the deposited data

Results flagged for a closer look

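For 21 of the 323 ZNF genes the effect of the siRNAs differed by the test of the difference itself (limma, adjusted p below 0.05), given as Si-FIBP#2 minus Si-FIBP#1 on the log2(FPKM + 1) scale. The largest were ZNF367 (0.85), ZNF608 (-0.81), ZNF611 (-0.78), ZNF680 (0.73), ZNF480 (-0.71) and ZNF324 (0.63). ZNF268, a KRAB gene, was lower with Si-FIBP#2 by -0.54, at a mean of 6.92 FPKM beside 10.5 FPKM with Si-FIBP#1 and 10.6 FPKM in Scramble. ZNF395 differed by -0.48. ZNF598, the ubiquitin ligase that marks collided ribosomes, differed by -0.45, with means of 30.1 FPKM in Scramble, 25.2 FPKM after Si-FIBP#1 and 18.1 FPKM after Si-FIBP#2. ZNF426 (-0.35), ZNF326 (-0.29) and ZNF207 (-0.19) were lower with Si-FIBP#2 as well. The difference of ZNF395 no longer passed without any 1 of the Scramble or Si-FIBP#2 samples or Si-FIBP#1 replicate 1 (adjusted p = 0.0559 to 0.116), and that of ZNF207 without Scramble replicate 2 or 3 or replicate 1 of either siRNA, Si-FIBP#1 replicate 2 or Si-FIBP#2 replicate 3 (adjusted p = 0.0506 to 0.0983).

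Of those higher with Si-FIBP#2, ZNF274, which brings SETDB1 to ZNF genes, differed by 0.28, since it fell to 16.7 FPKM with Si-FIBP#1 from 20.2 FPKM in Scramble and was at 20.5 FPKM with Si-FIBP#2. ZNF93, which silences L1 elements, differed by 0.45, at 3.77, 2.08 and 3.20 FPKM in Scramble, Si-FIBP#1 and Si-FIBP#2. ZNF732 differed by 0.39 and fell with both, from 10.5 to 4.86 and 6.70 FPKM. ZNF346, which binds double-stranded RNA, differed by 0.42, with 9.55, 9.73 and 13.4 FPKM. The others were ZNF184 (0.35), ZNF517 (0.36), ZNF839 (0.37), ZNF292 (0.39) and the pseudogene ZNF702P (0.45). Apart from ZNF395, ZNF207 and the largest differences listed first, these genes were not followed gene by gene through the alternatives. The counts of 12 higher and 9 lower became 3 and 3 without Si-FIBP#2 replicate 3 and 5 and 2 without Si-FIBP#1 replicate 1. No sample was tested as an outlier, since each group has 3 samples.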

How the results depend on the processing

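Of 220 alternative values of the counts, medians and the FIBP difference, 195 stayed within their limits. The limit was 1.5 times for a count and the combined SD of the single-sample medians of the groups compared for a median. For FIBP it was the same direction with an adjusted p below 0.05. A change of direction was judged for FIBP only, while the medians changed sign with median-ratio scaling, as given below. FIBP fell by between 3.26 and 4.21 on the log2 scale in every alternative run. Of 1602 alternative values of named ZNF genes, 86 lost and 25 gained an adjusted p below 0.05. The number higher with Si-FIBP#2 fell from 92 to 59 with median-ratio scaling, where the other 3 counts against Scramble stayed within 1.5 times. The number called at 2-fold with Si-FIBP#1 was 6, but 10 with median-ratio scaling and 12 with a pseudocount of 0.1, and with Si-FIBP#2 it was 4, but 9 with a pseudocount of 0.1, which by construction widens the differences of low genes. The median with Si-FIBP#1 went from 0.049 to 0.008 (TPM), -0.021 (median ratio), 0.096 (filter of 5 FPKM), 0.106 (members from 5 FPKM) and 0.080 (without Scramble replicate 1), and that with Si-FIBP#2 from 0.097 to -0.006 (median ratio). Between the siRNAs, 12 higher and 9 lower became 20 and 5 with TPM, 5 and 4 without a filter, and 4 lower with only the groups compared. For results other than the pseudocount the cause was not tested. Leaving out 1 sample gave 5 to 10 called with Si-FIBP#1, with 10 without Si-FIBP#1 replicate 3, and 3 to 17 higher and 2 to 9 lower between the siRNAs, where Scramble replicates 2 and 3, each Si-FIBP#1 sample and Si-FIBP#2 replicates 1 and 3 moved a count by over 1.5 times. Deviations of same-numbered samples were weakly correlated (-0.057 to 0.103), beside -0.142 to 0.049 for samples of different groups and numbers. Whether the replicate numbers pair the samples was not tested. With a replicate block, 76 rose and 48 fell after Si-FIBP#1, 92 and 42 after Si-FIBP#2, and 13 were higher and 6 lower between the siRNAs. With transcripts under 300 nt left out, chosen after seeing the data, these were 80 and 53, 95 and 48, and 13 and 9. ZNF28 would then lie below 3 FPKM. FPKM without counts limits what can be said of low genes.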
